A study of Mus musculus with 298 samples.

Results

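The genes described here make, store, take up and break down catecholamines in the mouse thoracic sympathetic ganglion. They are 10 rows of a count table of 16892 genes in 298 single cells, chosen by name: Th, Ddc, Dbh, Slc18a2, Slc18a1, Slc6a2, Gch1, Qdpr, Cyb561 and Maoa. All 10 were in the table. The mice came from a cross of R26R-Tomato with Wnt1-Cre, a driver active in the neural crest, so that the reporter marked the ganglion against the tissue around it. It is not specific to neurons, because ganglion glia also descend from the crest. Every cell came from animals of this cross, with no treatment, at postnatal days 11 to 38 (P11 to P38) and of both sexes. By the identities in the labels there were 8 cells of Ach1 and 8 of Ach2, together called cholinergic here, 4 Glutamatergic cells and 85 Unclassified cells. The other 193 cells were noradrenergic. Noradrenergic1 had 10 of them, Noradrenergic4 had 18, Noradrenergic5 had 23 and Noradrenergic2 had 39, and the rest belonged to Noradrenergic3.

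Noradrenaline is built from tyrosine in steps. Tyrosine hydroxylase (Th) makes DOPA and is the step that limits the rate, aromatic L-amino acid decarboxylase (Ddc) makes dopamine, and dopamine beta-hydroxylase (Dbh) turns dopamine into noradrenaline inside the vesicle. The vesicular monoamine transporters VMAT2 (Slc18a2) and VMAT1 (Slc18a1) fill the vesicle, and the noradrenaline transporter (Slc6a2) takes released transmitter back into the axon. GTP cyclohydrolase (Gch1) makes and dihydropteridine reductase (Qdpr) recycles tetrahydrobiopterin, the cofactor of Th. Cytochrome b561 (Cyb561) carries electrons across the vesicle membrane to renew the ascorbate that Dbh uses, and monoamine oxidase A (Maoa) breaks down the transmitter in the cytoplasm. VMAT2 is the usual form in sympathetic neurons and VMAT1 that of the adrenal medulla and of small intensely fluorescent cells.

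There were 10 collections, each holding the cells of a given sex and age, on 24 chips. A cell held 7225 to 81589 counts, with a median of 33099. A level is given below as counts of a gene per 10000 counts, pooled over the cells of an identity in a collection, as the mean ± SD over collections, and n is the number of collections. It compares a gene between cells and not one gene with another, because it is not corrected for gene length. The labels name no animals, so p-values measure the spread between collections, which in Ach1, Ach2 and Glutamatergic are mostly single cells. How the identities were assigned is not stated in the labels. If they were drawn from these same transcriptomes, p-values between identities are no independent evidence. The sex label of the P16 collection is in doubt, as its 5 cells labelled female held 0 Xist counts and 28 Y-linked counts. The P11 collection was caught on 1 chip that held no other collection. The satellite glia and Schwann cell markers, 14 of 14 in the table, summed to 4.81 to 64.6 with a median of 29.3 counts per 10000 in cholinergic cells, and to 0.864 to 67.1 with a median of 5.21 in noradrenergic cells. Gfap was at 0 in the cholinergic cells. Immediate-early and stress genes, 14 of 14 in the table, summed to 4.35 to 84.6 with a median of 23.9 in cholinergic cells, and to 2.11 to 52.8 with a median of 11.5 in noradrenergic cells. The part of these signals in the results below was not tested. A single Ach1 cell of P31 held 586 counts of Npy, the peptide of vasoconstrictor neurons. It held none of Chat or Slc18a3, which make and store acetylcholine. The cholinergic markers Slc5a7 and Vip had a count in all 8 Ach1 cells, this cell included. The cholinergic list of 5 genes summed to at least 31.6 counts per 10000 in Ach1 cells, against at most 5.83 in noradrenergic cells. The levels that follow are drawn by identity and collection.

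**Figure D1:**
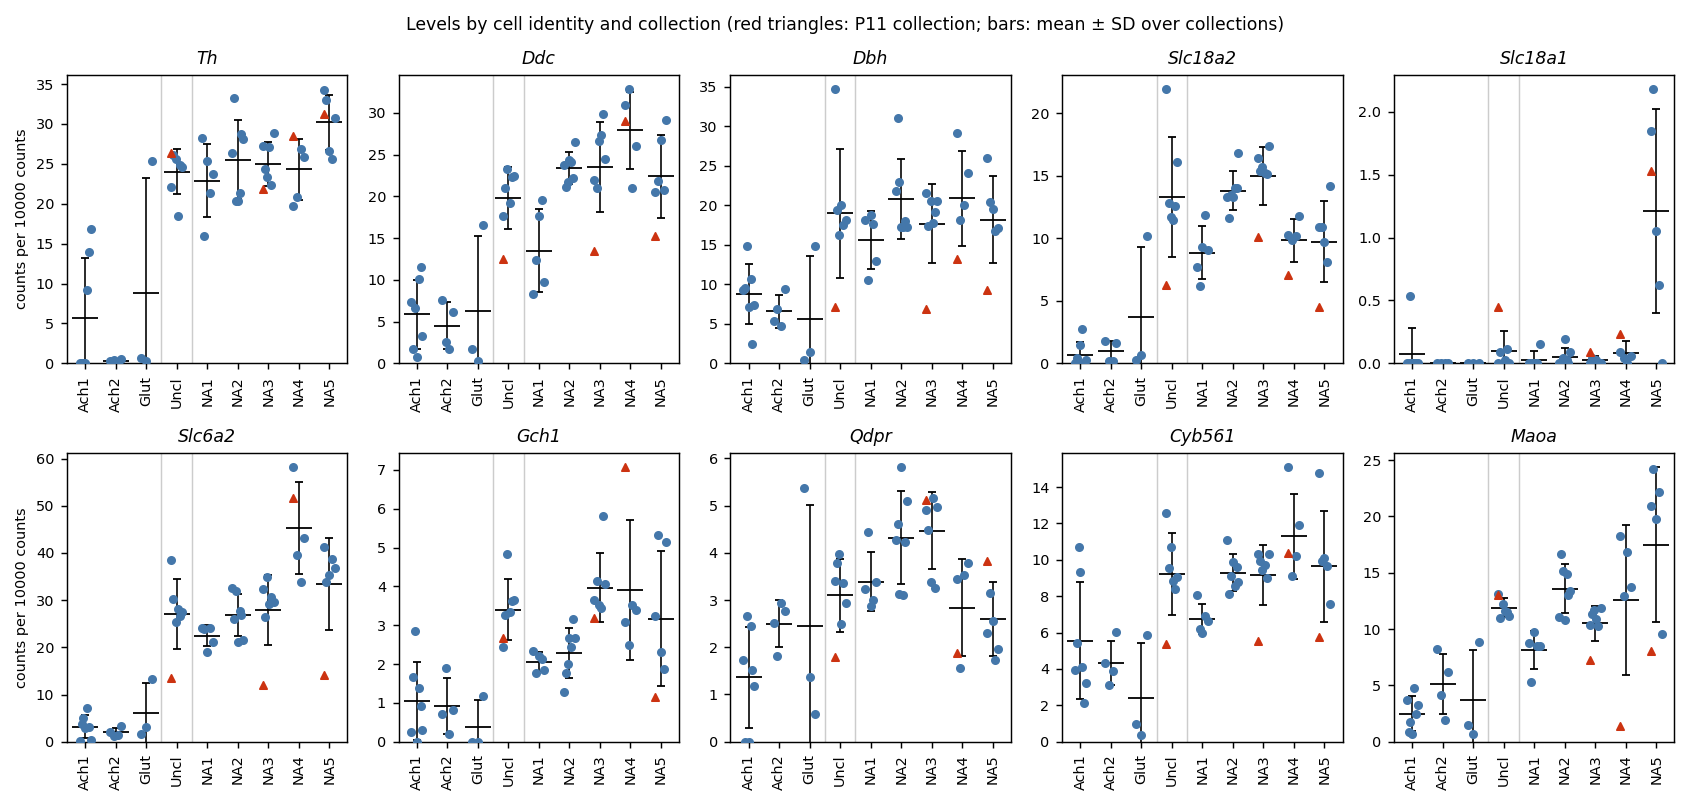
Each panel shows a gene, with counts per 10000 on the y axis and the cell identities on the x axis (Glut, Glutamatergic; Uncl, Unclassified; NA1 to NA5, Noradrenergic1 to Noradrenergic5). Each point is a collection, red triangles are the P11 collection, and bars give the mean ± SD over collections, cut at 0. Th, Slc18a2 and Slc6a2 were near 0 in Ach2, and Slc18a1 stood apart in Noradrenergic5 at 1.21 ± 0.811.

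Cholinergic cells were set against noradrenergic cells to ask how much of the catecholamine program the cholinergic neurons hold. Of the 10 genes, 9 were lower in cholinergic cells, 0 were higher and Slc18a1 was not called (edgeR quasi-likelihood test, adjusted p under 0.05). Over all 11555 genes tested, 4.57% were called and 2.4% were called lower. Without the P31 cell rich in Npy, an alternative chosen after seeing the data, the count was again 9. The median log2 fold change of the 10 genes was -1.92, against -0.20 over all genes tested. The median over all genes was -0.04 with RLE size factors, under which 9 of the 10 genes were called, and -0.03 over the 2633 genes kept by filterByExpr. The comparisons of cholinergic, Ach1, Ach2 and Glutamatergic cells share the same noradrenergic cells. In Ach1 9 of the 10 were called, all lower, where 3.23% of all genes were called and 1.58% were called lower. In Ach2 8 were called, all lower, where 2.91% of all genes were called and 1.1% were called lower. In summed counts such as these, fewer cells with a transcript and less transcript per cell cannot be told apart, so counts per cell are given where the cells are few.

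Th was at 0 in 8 of the 16 cholinergic cells and had 33 counts or more in 4 of them. In Ach1 there were 61 and 33 counts of Th in the P31 cells, 57 in the P38 cell and 46 in the P33 cell, and 0 in the cells of the P16, P29 and both P30 collections. These 4 Ach1 cells with Th lay at 5.12 to 16.8 counts per 10000, so that some reached into the range of single noradrenergic cells, 7.80 to 43.8. The P31 cell with 61 counts, at 16.3 per 10000, was the Npy-rich cell without counts of Chat or Slc18a3. The P38 and P33 cells, at 16.8 and 13.9, reached that range as well. In Ach2 the 8 cells held 0 to 3 counts of Th, with a count in 4 of them, and none reached that range. A count of 0 in the 8 cholinergic cells without Th allows a level of at most 0.534 to 2.15 counts per 10000, taking 3 counts as the limit and covering counting error only. By collection Th was 5.70 ± 7.45 in Ach1 (n = 7), 0.312 ± 0.215 in Ach2 (n = 4) and 26.2 ± 2.90 in noradrenergic cells (n = 10). The log2 fold change was -2.46 (SE 0.56, adjusted p = 0.00837 by edgeR) in Ach1 and -6.21 (SE 1.11, adjusted p = 0.000493 by edgeR) in Ach2, and in each the collections did not overlap those of the noradrenergic cells. The call in Ach1 was lost without the P30 female collection (log2 fold change -2.15, adjusted p = 0.0516 by edgeR). Between Ach1 and Ach2 the log2 fold change of Th was 3.75 (SE 1.25) and did not pass the test over all genes (adjusted p = 0.479 by edgeR).

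The bases before the start of Th are shown because Th split the cholinergic cells, and those of Slc18a2 because that gene was close to absent in both cholinergic identities. Both are RefSeq promoters on GRCm38.p6, 5′ to 3′ along the gene's strand, cut where an annotated exon of the gene begins. Capitals mark the only matches found in these windows to 5 motifs searched on both strands.
Th, chr7:142900015-142900245, minus strand: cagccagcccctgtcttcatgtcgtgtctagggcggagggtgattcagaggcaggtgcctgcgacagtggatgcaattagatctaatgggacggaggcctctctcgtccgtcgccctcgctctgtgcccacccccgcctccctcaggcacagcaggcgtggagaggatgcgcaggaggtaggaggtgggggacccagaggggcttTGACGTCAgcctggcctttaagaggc
Slc18a2, chr19:59260628-59260877, plus strand: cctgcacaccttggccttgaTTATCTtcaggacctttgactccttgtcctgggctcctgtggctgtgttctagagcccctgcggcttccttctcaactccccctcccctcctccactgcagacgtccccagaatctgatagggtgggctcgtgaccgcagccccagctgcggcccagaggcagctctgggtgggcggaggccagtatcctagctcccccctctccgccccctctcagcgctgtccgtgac
The Th gene spans chr7:142892752-142931128 on the minus strand and Slc18a2 spans chr19:59260896-59296012 on the plus strand, per GENCODE. The Th window lies directly before the start of an annotated transcript and inside an intron of longer ones, and the Slc18a2 window lies before the gene. The Th window holds the cAMP response element, TGACGTCA, at 45 to 38 bases before the start, a motif found in 1.55% of 32851 promoters of the table. The Slc18a2 window holds the GATA element, AGATAA, on the opposite strand, 230 to 225 bases before the start. It was found in 9.99% of promoters. The E-box, CATCTG, is in 14.4% of promoters and was found in Qdpr. The AP-1 element, TGACTCA, is in 4.46% of promoters and was found in none of the windows searched. The homeodomain core, TAATTA, is in 4.84% of promoters and was also found in none. The windows searched were those of Th, Ddc, Slc18a2, Gch1, Qdpr and Maoa. That of Dbh lies inside its first annotated exon and was not searched, and Slc6a2, Slc18a1 and Cyb561 had no entry. No matches overlapped, and a match is a description and not evidence of binding.

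The enzymes after Th were kept in every cholinergic cell, at lower levels. Ddc had 1 to 76 counts in Ach1 cells and 1 to 23 in Ach2 cells, and Dbh had 8 to 83 counts in Ach1 cells and 4 to 29 in Ach2 cells. The 76 counts of Ddc were in the Npy-rich P31 cell. None of the 16 cells was at 0 for either gene. Thus 8 of the 16 cholinergic cells held Dbh and Ddc with no count of Th, a combination found in 0 of 193 noradrenergic cells. Dbh stood at 8.76 ± 3.78 in Ach1 (n = 7) and 6.58 ± 2.09 in Ach2 (n = 4), against 19.7 ± 5.52 in noradrenergic cells (n = 10). Its log2 fold change was -1.34 (SE 0.23, adjusted p = 1.47e-06 by edgeR) in Ach1 and -1.65 (SE 0.31, adjusted p = 1.28e-05 by edgeR) in Ach2, lower in 7 of 7 and 4 of 4 collections that held both. The collections overlapped, however, because the noradrenergic cells of P11 had only 8.23. Ddc was 5.88 ± 4.16 in Ach1 and 4.52 ± 2.77 in Ach2, against 22.6 ± 4.03, with log2 fold changes of -2.08 (SE 0.25) and -2.38 (SE 0.34), and here no collection overlapped. Without libraries of a single cell, which leaves 1 Ach1 library, Dbh was not called in Ach1 (log2 fold change -0.79, adjusted p = 0.198 by edgeR). Ddc overlaps the antisense gene 1700042O10Rik, which is also in the table, and whether the counting used strand is not given in the sources used here.

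The transporters of the vesicle and of the axon fell furthest beside Th. Slc18a2 had 28 counts in the Ach1 cell of P31 that was rich in Npy, 0 to 2 in the other 7 Ach1 cells, and 0 to 10 in the Ach2 cells, and it was at 0 in 7 of 16 cholinergic cells. The level was 0.700 ± 1.04 in Ach1 and 0.953 ± 0.874 in Ach2, against 12.9 ± 2.40 in noradrenergic cells, with no overlap of collections. The log2 fold changes were -3.88 (SE 0.35, adjusted p = 8.20e-21 by edgeR) and -3.86 (SE 0.46, adjusted p = 1.12e-12 by edgeR). Without the Npy-rich Ach1 cell and the Npy-rich Glutamatergic cell of P33, Slc18a2 in Ach1 was at -6.50 and was called. Slc6a2 had 1 to 63 counts in Ach1 cells, the 63 in the Npy-rich cell, and 0 to 16 in Ach2 cells. Only 1 cholinergic cell was at 0. Slc6a2 stood at 3.19 ± 2.47 in Ach1 and 2.02 ± 0.904 in Ach2, against 28.3 ± 5.72, again with no overlap. Its log2 fold changes were -3.37 (SE 0.28, adjusted p = 8.88e-30 by edgeR) and -3.94 (SE 0.39, adjusted p = 9.53e-21 by edgeR), and without those cells it was at -4.03 in Ach1. For cholinergic against noradrenergic cells as a whole, Slc6a2 had the 4th lowest p of the 11555 genes and Slc18a2 the 13th.

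The cofactor, electron and breakdown genes were lower too, by less than Th and the transporters in log2 fold change. Gch1 was 1.05 ± 1.00 in Ach1 and 0.910 ± 0.723 in Ach2, against 3.06 ± 1.21 in noradrenergic cells (log2 fold changes -1.31 and -1.41, SE 0.29 and 0.37), and without the P29 collection it was at -2.34 in Ach2. Qdpr was lower in Ach1, at 1.36 ± 1.06 against 3.97 ± 0.731 (log2 fold change -1.16, SE 0.27, adjusted p = 0.00117 by edgeR). In Ach2 Qdpr was 2.5 ± 0.490 and did not pass the test (log2 fold change -0.70, SE 0.31, adjusted p = 0.299 by edgeR). Cyb561 was 5.55 ± 3.22 in Ach1 and 4.33 ± 1.22 in Ach2, against 8.98 ± 1.77, and was found in 16 of 16 cholinergic cells (log2 fold changes -1.13 and -1.30, SE 0.24 and 0.30). It was the least uniform of these, being lower in 5 of 7 collections in Ach1. Maoa was 2.5 ± 1.52 in Ach1 and 5.12 ± 2.70 in Ach2, against 11.9 ± 2.70 (log2 fold changes -2.45 and -1.54, SE 0.27 and 0.31), and at -3.09 in Ach1 without the Npy-rich cells. Between Ach1 and Ach2 edgeR called 0 of the 10 genes, where 0.138% of all genes were called. DESeq2 also called 0, and 2 genes, Th and Maoa, had an unadjusted p under 0.05. With a log2 fold change of 3.75 for Th this does not show the cholinergic identities to be alike.

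**Figure D2:**
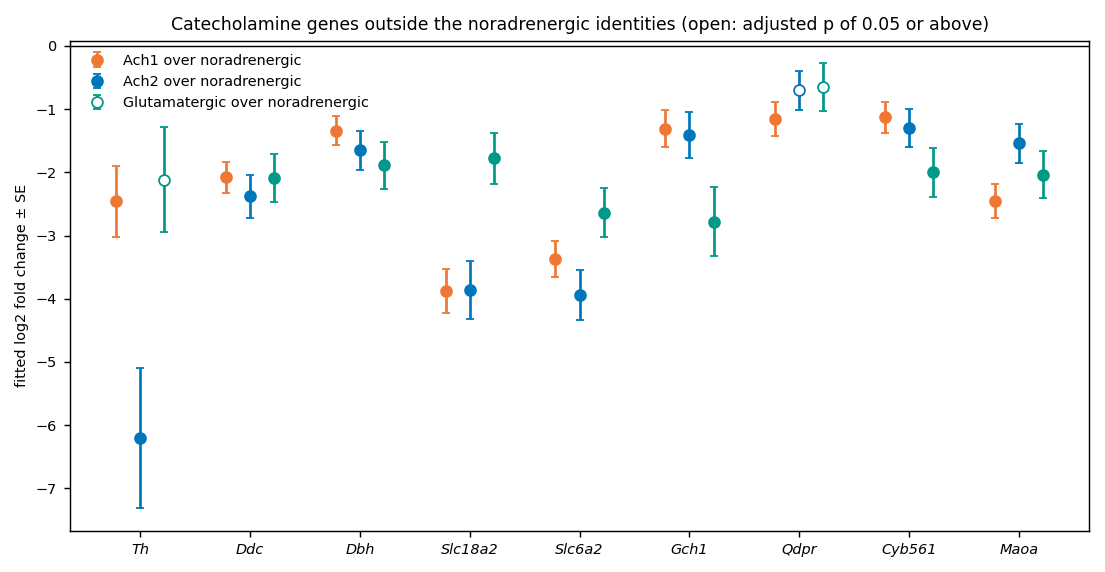
The y axis is the fitted log2 fold change of each gene (x axis) in Ach1, Ach2 and Glutamatergic cells over noradrenergic cells, with the SE as bars. Open circles had an adjusted p of 0.05 or above, and Slc18a1 is left out because it was at 0 in Ach2 and Glutamatergic cells. Th in Ach2 lay lowest, at -6.21, and Dbh moved less than Slc18a2 and Slc6a2 in both cholinergic identities.

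The log2 ratio of Dbh or Ddc to Th, Slc18a2 or Slc6a2 in the summed cells of a collection needs no scaling. These 6 ratios were chosen with the fall of these genes in the same cells known, so their p-values restate that pattern and are no independent support. Over the 7 collections with both kinds of cell, the ratio of Dbh to Slc18a2 averaged 3.59 in cholinergic and 0.573 in noradrenergic cells. The difference was 3.01 (SD 1.61) and was above 0 in 7 of 7 collections (two-sided exact sign-flip permutation test, p = 0.0156, the smallest this design allows, adjusted over 6 ratios 0.0469). The ratio of Dbh to Slc6a2 averaged 1.42 in cholinergic and -0.557 in noradrenergic cells, a difference of 1.97 (SD 1.02), also above 0 in 7 of 7 (exact permutation p = 0.0156, adjusted 0.0469). The ratio of Dbh to Th differed by 3.21 (SD 3.44) but was above 0 in 6 of 7 collections and did not pass (exact permutation p = 0.0781, adjusted 0.0938). P33 was the exception, where 1 Ach1 cell held 46 counts of Th and 8 of Dbh. The ratios of Ddc to Th, Slc18a2 and Slc6a2 differed by 2.40, 2.21 and 1.16, with adjusted exact permutation p of 0.125, 0.0938 and 0.0938. With cells thinned to 15000 counts each, which leaves out the P30 male cholinergic cell, 0 of the 6 ratios passed. With each collection left out in turn 0 passed, except that 4 passed without the P30 male cells. Each of these settings has a collection fewer, which raises the smallest p the test allows. After adjustment a ratio can then pass only if most of the 6 ratios reach that smallest p. The lost calls are therefore set by the design and are no result about the ratios.

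**Figure D3:**
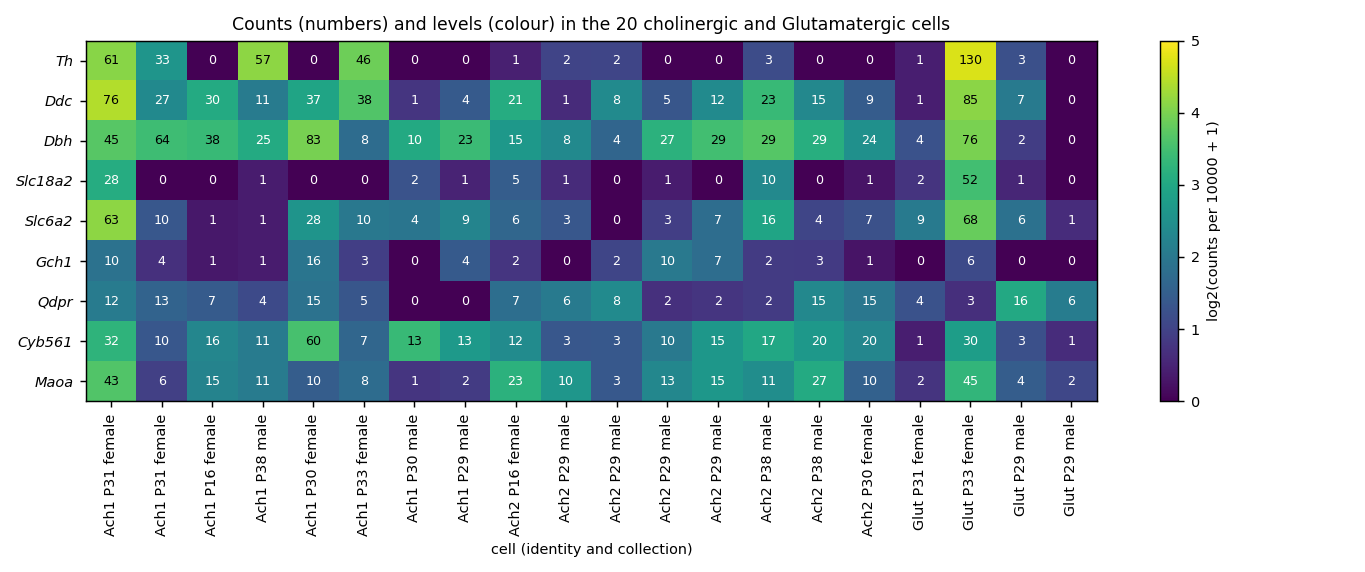
Each column is 1 of the 20 cholinergic and Glutamatergic cells, named by identity and collection, and each row is a gene. Numbers are raw counts and colour is log2 of counts per 10000 plus 1. The rows of Dbh and Ddc hold counts in every cholinergic cell, while those of Th and Slc18a2 are at 0 in 8 and 7 of the 16, and the Glutamatergic cell of P33 stands apart from the other 3.

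In the Glutamatergic cells 7 of the 10 genes were called lower, where 1.01% of all genes were called lower and 2.63% were called in all. The 4 cells were not alike. The cell of P33 held 130 counts of Th, 85 of Ddc, 76 of Dbh, 52 of Slc18a2 and 68 of Slc6a2, together with 555 counts of Npy. The cell of P31 and the first of P29 held 1 and 3 counts of Th, 1 and 7 of Ddc, 4 and 2 of Dbh, 2 and 1 of Slc18a2 and 9 and 6 of Slc6a2. The second cell of P29 had 0 counts of Th, Ddc, Dbh and Slc18a2 among 18310, which allows at most 1.64 counts per 10000 of each, and 1 count of Slc6a2. It was the only one of the 298 cells with fewer than 3 of these 5 genes. Qdpr ran the other way between these cells, with 16 counts in the first P29 cell, at 7.10 per 10000, and 3 in the P33 cell, at 0.587. By collection (n = 3) Gch1 was 0.391 ± 0.678 (log2 fold change -2.78, SE 0.54, adjusted p = 5.29e-05 by edgeR), Cyb561 was 2.40 ± 3.02 (-2.0, SE 0.39) and Maoa was 3.66 ± 4.48 (-2.04, SE 0.37), against 3.06 ± 1.21, 8.98 ± 1.77 and 11.9 ± 2.70 in noradrenergic cells. Ddc had a log2 fold change of -2.09 (SE 0.38, adjusted p = 9.83e-06 by edgeR). The P33 cell bears on these values, as without that collection Ddc was at -4.63, Cyb561 at -4.11 and Maoa at -3.93, all called, and the other 3 cells held no count of Gch1. Th was not called with all cells (adjusted p = 0.253 by edgeR). Without the P33 Glutamatergic cell and the Npy-rich Ach1 cell, the 2 cells outside the noradrenergic identities with over 100 counts of Npy, Th was called at -5.75 (adjusted p = 0.00215 by edgeR) and 8 of the 10 genes were called. This alternative was chosen after seeing the data. Without the P31 or the P29 collection 3 or 4 of the 10 were called.

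Among the noradrenergic identities all 5 of Th, Ddc, Dbh, Slc18a2 and Slc6a2 had a count in 193 of 193 cells. Each identity was set against the other noradrenergic identities. In each comparison 0 to 2 of the 10 genes were called, where 1.25 to 1.74% of all genes were called. The largest fold change of the called genes was that of Slc18a1. It had a count in 20 of 23 Noradrenergic5 cells (87%, exact 95% interval 66.4 to 97.2%) and in 17 of 170 cells of the other noradrenergic identities (10%, 5.93 to 15.5%), intervals that cover counting error only. Noradrenergic5 cells held 93 counts in all and up to 13 in a cell, with 5 or more in 7 cells, and the other 170 cells held 20 counts with at most 2 in a cell. By collection the level in Noradrenergic5 was 1.53 at P11, 1.85 at P29, 2.18 and 1.05 in the P30 and P31 females, 0.624 at P33 and 0 at P34. The other noradrenergic identities averaged 0.0266 ± 0.0368 (n = 10). Only the P34 collection of Noradrenergic5 lay as low as the others; it was 1 cell, with 228 counts of Npy, where the other 22 cells of this identity held 0 to 74. The log2 fold change was 4.73 (SE 0.43, adjusted p = 3.78e-24 by edgeR), the lowest p of the 11555 genes in this comparison. With each collection left out in turn it ran from 4.32 to 5.32 and was called each time. With all cells thinned to 15000 counts, 68.2% of Noradrenergic5 cells kept a count. Slc18a1 came in addition to VMAT2, as Slc18a2 was at 0 in none of the 23 cells. The level of Slc18a2 was 9.72 ± 3.25 in Noradrenergic5, against 13.2 ± 2.29 in the other noradrenergic identities. It was lower in 6 of 6 collections and was not called (log2 fold change -0.32, SE 0.25, adjusted p = 0.886 by edgeR). Of the cells outside the noradrenergic identities, 1 of 8 Ach1 cells held Slc18a1, with 3 counts, and Ach2 and Glutamatergic cells held none.

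**Figure D4:**
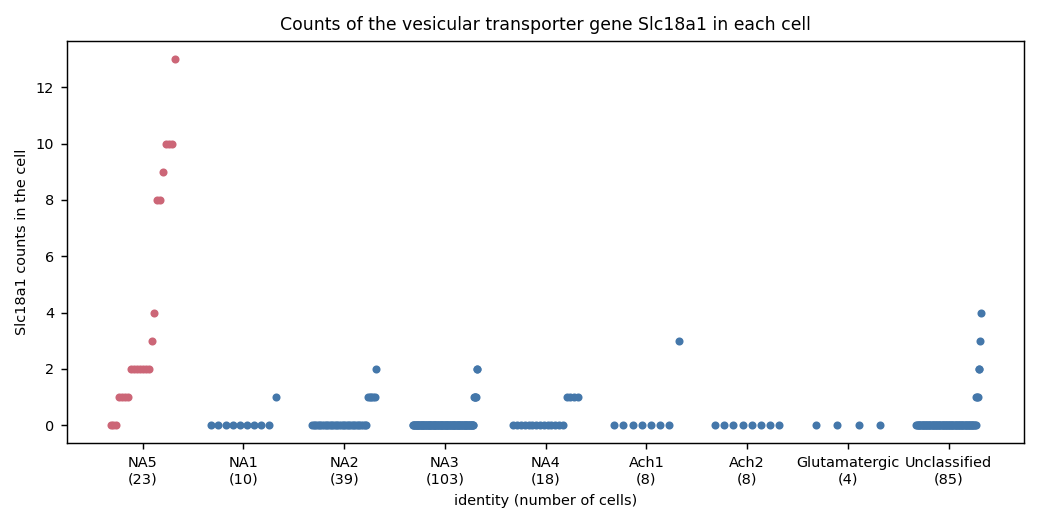
The y axis is the raw count of Slc18a1 in each cell, and the x axis is the cell identity with its number of cells. Each point is a cell, sorted within its identity. Noradrenergic5 cells reach 13 counts, against at most 2 in the other noradrenergic identities.

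None of the other chromaffin and small intensely fluorescent cell markers was called higher with it. The enzyme Pnmt, which turns noradrenaline into adrenaline, and the opioid peptide precursor Penk were at 0 in all Noradrenergic5 cells. They were also at 0 in Noradrenergic1, Noradrenergic2 and Noradrenergic4. Chgb, a granule protein of the same list, was lower in Noradrenergic5, at 1.74 ± 0.759 (n = 6) against 4.88 ± 1.69 in the other noradrenergic cells (log2 fold change -1.25, SE 0.25, adjusted p = 0.00019 by edgeR), and Chga was not called (-0.78, SE 0.27, adjusted p = 0.168 by edgeR). The calcium exchanger Slc24a2, at 0.119 ± 0.1 against 0.0457 ± 0.0416 (0.96, SE 0.61, adjusted p = 0.794 by edgeR), and the peptide precursor Cartpt, at 0.105 ± 0.168 against 0.053 ± 0.0682 (0.07, SE 0.29), were not called. The whole list, 7 of 7 genes in the table, summed to 0.697 to 9.59 with a median of 4.27 counts per 10000 in Noradrenergic5 cells. Its median was 5.26 in Noradrenergic1, 7.42 in Noradrenergic2, 9.89 in Noradrenergic3 and 3.99 in Noradrenergic4. Slc18a1 lies on chromosome 8, from 69037711 to 69089235 on the minus strand of GRCm38, and overlaps Atp6v1b2, a subunit of the vesicular proton pump, on the plus strand. Without knowledge of the strand in counting, reads of this pair cannot be told apart where they overlap. Atp6v1b2 stood at 8.61 ± 2.75 in Noradrenergic5 and 5.54 ± 0.894 in the others, higher in 6 of 6 collections, and was not called (log2 fold change 0.48, SE 0.21, adjusted p = 0.453 by edgeR).

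Noradrenergic5 also had more Maoa, with 17.5 ± 6.89 (n = 6) against 11.6 ± 2.62 in the other noradrenergic cells (n = 10). Its 6 collections ran from 8.04 at P11 to 24.2 at P30, and overlapped the others (log2 fold change 0.72, SE 0.21, adjusted p = 0.0488 by edgeR). With Slc18a1 this made 2 of the 10 genes called higher, where 1.41% of all genes were called and 0.788% were called higher. Noradrenergic4 had the most Slc6a2, with 51.6, 58.3, 39.6, 33.9 and 43.2 counts per 10000 in the P11, P30, P31, P33 and P38 collections. The other noradrenergic identities averaged 27 ± 6.63, below each of these values, and Slc6a2 was the gene called of the 10 (log2 fold change 0.82, SE 0.24, adjusted p = 0.0435 by edgeR), where 1.25% of all genes were called and 0.952% were called higher. A single Noradrenergic4 cell reached 100 counts of Slc6a2 per 10000, the most of any cell, but the lowest Noradrenergic4 cell still had 31.6, above the median of all noradrenergic cells of 30.7. Noradrenergic3 had more Slc18a2, at 15.0 ± 2.30 against 11.5 ± 2.57, and more Qdpr, at 4.47 ± 0.817 against 3.5 ± 0.888. Both were higher in 7 of 7 collections (log2 fold changes 0.72 and 0.63, SE 0.21 and 0.18, adjusted p = 0.0348 and 0.0323 by edgeR), where 1.74% of all genes were called and 1.46% were called higher. With RLE size factors, where the median over all genes was 0.05 in place of 0.16 on the log2 scale, both calls were lost (0.54 and 0.48), as they were without the replicate block (0.68 and 0.65). The calls of Maoa in Noradrenergic5, of Slc6a2 in Noradrenergic4 and of both genes in Noradrenergic3 stood close to the threshold and were each lost under 9 or 10 of 20 alternatives. With DESeq2 the adjusted p was 0.564 for Maoa and 0.269 for Slc6a2.

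In Noradrenergic1 the 10 genes lay low but 0 were called, where 1.39% of all genes were called, and by DESeq2 0 were called as well. Their median log2 fold change was -0.69, against -0.15 over all genes, and 6 had an unadjusted p under 0.05. Ddc had the lowest level of the noradrenergic identities here, 13.5 ± 4.96 (n = 5) against 23.4 ± 3.86 in the others, lower in 4 of 4 collections (log2 fold change -0.93, SE 0.29, adjusted p = 0.0779 by edgeR). Maoa was 8.16 ± 1.67 against 12.2 ± 2.77, also lower in 4 of 4 (-0.91, SE 0.28, adjusted p = 0.0707 by edgeR). With libraries of at least 2 cells 5 of the 10 genes were called. The 1.39% of all genes belongs to the main fit and not to this alternative, whose share is not given here. Noradrenergic2 gave 0 calls of the 10 with edgeR and with DESeq2, and 2 unadjusted p under 0.05, where 1.64% of all genes were called. In mean level Th was the most even of the genes. From high to low its level was 30.2 ± 3.42 in Noradrenergic5, 25.5 ± 4.93 in Noradrenergic2 and 25.0 ± 2.72 in Noradrenergic3, then 24.3 ± 3.86 in Noradrenergic4 and 22.9 ± 4.62 in Noradrenergic1. Neighbours in this order differed by less than the larger of their SDs. In none of the 5 comparisons was Th called, and its log2 fold changes ran from -0.33 to 0.32. Their SEs were 0.45 to 0.60, where Slc18a2, Slc6a2 and Maoa were called above with SEs of 0.21 to 0.24. A shift of the size called for those genes could thus be missed for Th, and the lack of calls does not show evenness. In Noradrenergic5 Th was lower than in the others in only 1 of 6 collections.

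Male and female cells could be compared in Noradrenergic3, over 2 male and 5 female collections with at least 3 cells. edgeR called 0 of the 9 genes tested, where 0.0296% of all genes were called, DESeq2 called 0, and none had an unadjusted p under 0.05. Th was 28.1 ± 1.23 in males and 23.8 ± 2.08 in females (log2 fold change 0.21, SE 0.18, adjusted p = 1.00 by edgeR) and Dbh was 21.1 ± 0.746 in males and 16.4 ± 5.41 in females (0.34, SE 0.30). The male collections lay above all female ones for Th, Dbh, Slc18a2 and Cyb561, with log2 fold changes of 0.21 to 0.34. The share of all genes that separate in this way was not counted, so this separation is a description only. The female mean of Dbh includes the P11 collection at 6.93, where the 6 other collections of both sexes held 17.4 to 21.6.

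The Unclassified cells held the noradrenergic set. All 85 had counts of Th, Ddc, Dbh, Slc18a2 and Slc6a2, as in noradrenergic cells and unlike 11 of 16 cholinergic cells. Levels (n = 7) were 24 ± 2.81 for Th, 19.8 ± 3.76 for Ddc, 19 ± 8.17 for Dbh, 13.3 ± 4.78 for Slc18a2 and 27.1 ± 7.47 for Slc6a2. Against these stood 26.2 ± 2.90, 22.6 ± 4.03, 19.7 ± 5.52, 12.9 ± 2.40 and 28.3 ± 5.72 in noradrenergic cells, each within an SD, and no test was made. Gch1, Qdpr, Cyb561 and Maoa were at 3.40 ± 0.781, 3.10 ± 0.768, 9.22 ± 2.23 and 11.9 ± 0.840, close to the noradrenergic levels apart from Qdpr, which was 3.97 ± 0.731 there. Slc18a1 had a count in 7 of the 85 cells (8.24%, exact 95% interval 3.38 to 16.2%), with at most 4 in a cell. The lowest Unclassified cell for Th had 0.812 counts per 10000, below the lowest noradrenergic cell at 7.80. Their median total count was 22977, the lowest of all identities, and the glial markers had a median of 26.9 counts per 10000 in them. Chat, the enzyme that makes acetylcholine, had a count in 4 of the 85, against 3 of 193 noradrenergic cells. For Slc18a3, Slc5a7 and Vip these numbers were 7, 9 and 19 of the 85, against 6, 24 and 29 of 193. The cholinergic list of 5 genes reached 43.9 counts per 10000 in an Unclassified cell, with a median of 2.64. Its highest sum in a noradrenergic cell was 5.83, and cholinergic cells held 31.6 to 232.

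P11 cells were found in 4 identities. Dbh and Slc18a2 were below every other collection in all 4 of them and Slc6a2 in 3, while Th was below in 1, within the range in 1 and above in 2. In Noradrenergic3, where it held 6 cells, Dbh was 6.93 at P11, against 17.4 to 21.6 in the 6 other collections, and Slc6a2 was 12.1, against 26.4 to 35. Slc18a2 was 10.1, against 15.1 to 17.4, Cyb561 was 5.56, against 8.98 to 10.3, and Ddc was 13.4, against 21 to 29.8. Th was 21.9, against 22.4 to 28.9, and Qdpr was 5.12, within the range of 3.25 to 5.17. The 2 Noradrenergic5 cells of P11 had 9.31 of Dbh, against 16.7 to 26, and 14.2 of Slc6a2, against 33.9 to 41.2, with Th at 31.3, inside 25.6 to 34.2. The single Unclassified cell of P11 had 7.15 of Dbh and 13.4 of Slc6a2, both below the other collections. The single Noradrenergic4 cell had 51.6 of Slc6a2, inside the range of the others. Age and chip cannot be told apart for these cells, and a single early collection allows no test.

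Across single cells the genes did not vary as a block. Correlations were taken on log2 of counts per 10000 plus 1 over the 193 noradrenergic cells, after the means of identity and collection were removed, and are descriptions, since cells share chips and collections. The 10 pairs among Th, Ddc, Dbh, Slc18a2 and Slc6a2 had a median Pearson r of 0.24 and ran from -0.04 to 0.65. Over all pairs of 6474 genes found widely in these cells the median was 0.002 and the 5th to 95th percentiles were -0.15 to 0.15. Dbh and Slc6a2 were the closest pair, with r = 0.65 and Spearman's rho = 0.63. Each ranked 1 of 6473 genes for the other. The value was 0.67 with the chip mean removed in place of the collection, 0.50 with cells thinned to 15000 counts, and 0.42 to 0.82 within the 5 collections of 21 to 85 noradrenergic cells. Cyb561, the electron carrier that serves Dbh, came next, with r = 0.47 to Dbh (rank 7) and r = 0.47 to Slc6a2 (rank 9). Within the same 5 collections its r ran from -0.23 to 0.74 with Dbh and from 0.03 to 0.73 with Slc6a2, the lowest of both in the 22 cells of P33. None of the 3 followed the total count of the cell, with r of 0.05 for Dbh, 0.07 for Slc6a2 and -0.04 for Cyb561.

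**Figure D5:**
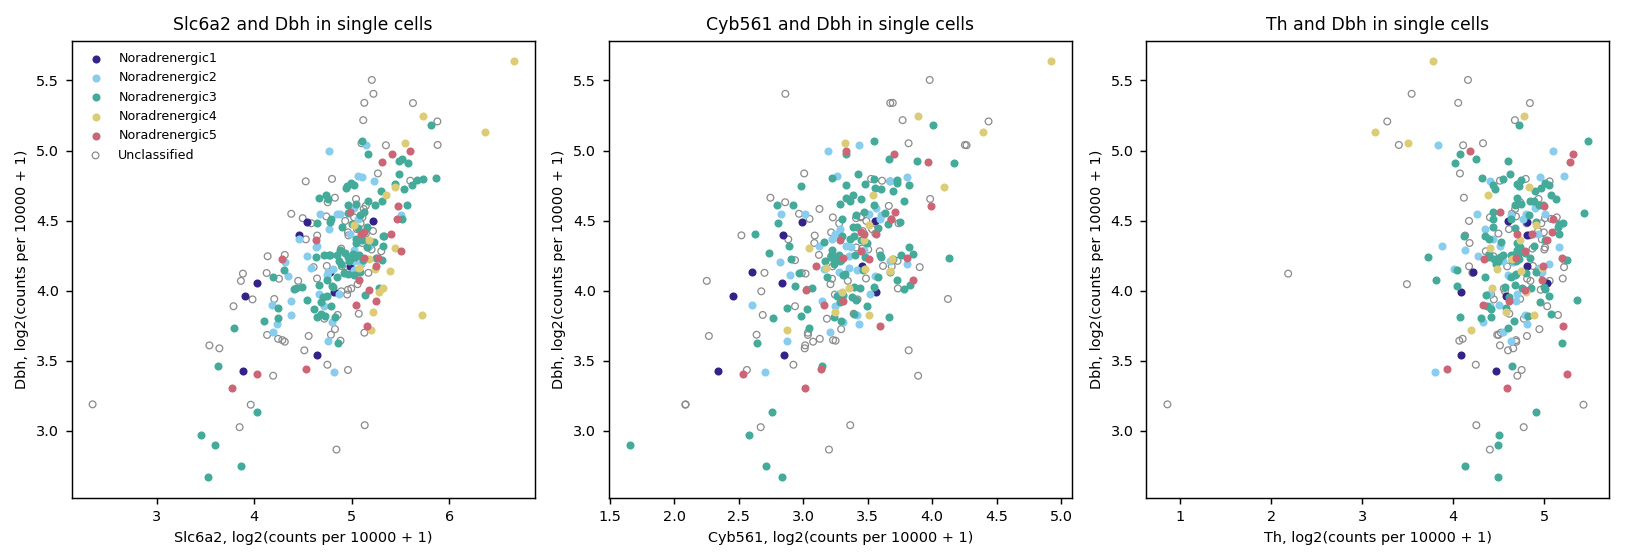
Each point is a cell, coloured by noradrenergic identity, with Unclassified cells as open grey circles. The y axis is Dbh and the x axes are Slc6a2, Cyb561 and Th, all as log2 of counts per 10000 plus 1. Dbh rises with Slc6a2 and Cyb561 in the plots, and shows no such trend with Th (residual r = 0.65, 0.47 and 0.05 in noradrenergic cells).

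Th stood outside this group. Its r was 0.05 with Dbh, 0.05 with Ddc, -0.04 with Slc6a2 and -0.02 with Cyb561, and within collections that with Dbh ran from -0.28 to 0.23. The genes of the family closest to Th were Slc18a2, with r = 0.28, and Gch1, with r = 0.25, which makes its cofactor. Outside the family the highest were Tppp3, a tubulin-binding protein, at 0.49, Pcbd1, which recycles the pterin cofactor that Th uses, at 0.45, and Tmsb10, an actin-binding protein, at 0.44. With thinned cells the same 3 led, at 0.43, 0.40 and 0.39. Over all 298 cells by Spearman's rho the first 4 were Tppp3 (0.47), Psmb5 (0.37), Cfl1 (0.34) and Gpx4 (0.34), and Gch1 came 18th and Slc18a2 26th of 9886 genes.

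Dbh and Slc6a2 shared their closest genes outside the family. For Dbh they were Rtn4, a membrane protein of the endoplasmic reticulum, at 0.51, Gnas, the stimulatory G protein alpha subunit, at 0.49, and Atp1b1, a sodium pump subunit, at 0.49. For Slc6a2 they were Gnas at 0.59, Atp1b1 at 0.56 and Rtn4 at 0.52. Thinned cells kept Gnas in both lists and brought in Map1b in both. Slc18a2 had the vasoconstrictor peptide Npy first (0.40), then Exoc3, an exocyst subunit (0.39), and the guanine deaminase Gda (0.38). These were less steady, as thinned cells put Eif5 (0.28) and Commd1 (0.26) before Npy (0.25). Over 9 transcription factors of the sympathetic lineage, r with Dbh ran from -0.18 (Isl1) to 0.35 (Hand2) and r with Th from -0.06 (Phox2a) to 0.21 (Hand1). Hand2 had an r of 0.07 with Dbh in the Unclassified cells. Ddc was nearest to Slc18a2 and Slc6a2 in the family, at 0.25 and 0.23, and followed the total count with r = 0.33.

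The pattern in the 85 Unclassified cells was close to this. With the collection mean removed, the 10 pairs had a median r of 0.37 and ran from 0.02 to 0.52, the highest again Dbh with Slc6a2. Cyb561 had 0.47 with Dbh and 0.48 with Slc6a2, and Th with Dbh was the lowest at 0.02. Th with Slc18a2 was 0.36 by Pearson but 0.07 by Spearman's rho.

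Beside the 10 genes, 34 others of the pathway were listed, of which 32 were in the table and 24 could be tested. In cholinergic cells 4 were called lower and 0 higher, where 2.4% of all genes were called lower, and their median log2 fold change was -0.38, against -0.20 over all genes. Slc31a1, the copper importer that feeds the copper enzyme Dbh, fell to 1.92 ± 1.52 in cholinergic cells, against 10.2 ± 2.52 (log2 fold change -2.68, SE 0.25, adjusted p = 8.90e-25 by edgeR), with no overlap of collections. Atp7a, which loads copper into the secretory pathway, was called lower at -0.72 (SE 0.21, adjusted p = 0.0203 by edgeR), a call that was lost under 6 of 20 alternatives, among them RLE size factors (-0.55, adjusted p = 0.0841 by edgeR). Maob, the second monoamine oxidase, fell to 0.667 ± 0.916 against 5.75 ± 2.65 (-3.02, SE 0.31, adjusted p = 4.42e-18 by edgeR, and -4.03 without the Npy-rich cells). Slc10a4, a transporter-like protein of monoamine and cholinergic vesicles, fell to 1.72 ± 0.508 against 3.33 ± 0.671 (-1.37, SE 0.23, adjusted p = 3.02e-07 by edgeR). Slc31a1, Maob and Slc10a4 were called lower in both Ach1 and Ach2. Without the Npy-rich cells Slc31a1 was at -3.73 in Ach1, against -2.83 with them, and without P29 Slc10a4 was at -2.66 in Ach2, against -1.84 with it. In Ach1 the call of Slc10a4 (-0.90) was lost under 8 of 20 alternatives, among them RLE size factors (-0.66, adjusted p = 0.133 by edgeR), and that of Maob (-2.47) was lost with libraries of at least 2 cells (-1.07, adjusted p = 0.187 by edgeR). None of the 6 tested genes of pterin synthesis and recycling was called, Pts and Pcbd1 among them at 0.15 and -0.37. In Glutamatergic cells Slc31a1 (-2.64, SE 0.42), Atp7a (-2.20, SE 0.48) and Slc10a4 (-1.77, SE 0.43) were called lower. The calls of Atp7a and Slc10a4 there were lost without P29 (-1.60 and -1.15) and without P31 (-1.74 and -1.24).

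Within the noradrenergic identities Slc6a4, the serotonin transporter, was called higher in Noradrenergic1, at 1.51 ± 1.66 (n = 5) against 0.325 ± 0.155 (log2 fold change 2.94, SE 0.40, adjusted p = 1.16e-10 by edgeR), though it was lower there in 1 of 4 collections, and it was at 2.21 without P29. Slc31a1 was lower in Noradrenergic1, at 5.66 ± 1.48 against 10.8 ± 2.03 (-1.12, SE 0.28, adjusted p = 0.0084 by edgeR), as was Atp7a (-1.03, SE 0.30, adjusted p = 0.0414 by edgeR), calls lost under 4 and 9 of 20 alternatives. Maob was higher in Noradrenergic2, at 8.07 ± 2.31 against 4.51 ± 1.76 (1.04, SE 0.21, adjusted p = 0.000304 by edgeR), and in Noradrenergic3 (0.75, SE 0.20, adjusted p = 0.0137 by edgeR), calls lost under 4 and 9 of 20 alternatives. DESeq2 was among the losses in both (adjusted p = 0.484 and 0.363). Other monoamine routes were all but missing from the ganglion. Pnmt had 3 counts in 1 of the 298 cells, the tryptophan hydroxylases Tph1 and Tph2 had 7 and 4 counts, the histidine decarboxylase Hdc 5, and the dopamine transporter Slc6a3 5.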

How the data were processed

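Gene counts were measured in single cells of the thoracic sympathetic ganglion. The deposited table holds whole-number counts per gene and cell, with no normalization by the authors found in it. The genome build was mm10 per the submitters' processing notes, and the aligner, the counting program and its use of strand are not given in the sources used here. Every table column matched a sample's labels.

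Counts were summed per identity and collection into libraries and fitted with edgeR 4.0.16 in R 4.3.3 (TMM, robust quasi-likelihood, two-sided, Benjamini-Hochberg). Identity and collection were terms, and the 11555 genes with at least 20 counts and at least 3 libraries were kept. The SE is the fold change over the square root of F and restates the test. The collection was kept as a block because libraries of the same collection deviated together, with r of 0.240 to 0.356 in 4 pairs, against -0.302 to 0.207 in 20 pairs from different collections. Unclassified cells entered no test. Cells were thinned to 15000 counts in a check of depth, which left out 20 cells. Alternatives included RLE size factors, library totals alone, DESeq2 1.42.0, filterByExpr, other blocks and each collection left out. The fit was tested on simulated data.

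The members and the gene lists were chosen with earlier results of these data known. Partners of a gene are the highest correlations over all genes considered. The other genes named come from the lists, or lie on the opposite strand of a member.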

Additional observations from a re-analysis of the deposited data

Results flagged for a closer look

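Of 79 groups of collections examined, 13 had a collection that stood apart from the others by Dixon's criterion, which chance alone gives in about 1 in 20 groups. Levels are in counts per 10000.

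The P11 collection was the one apart in 8 of them. In Noradrenergic3, where it held 6 cells, P11 was lowest for Dbh at 6.93, Slc6a2 at 12.1, Slc18a2 at 10.1, Cyb561 at 5.56 and Maoa at 7.23. The next lowest collections stood at 17.4, 26.4, 15.1, 8.98 and 10.3. In Noradrenergic5 its Slc6a2 was 14.2, where the other collections held 33.9 to 41.2. In Noradrenergic4 its single cell was highest for Gch1 at 7.07, where the others held 2.49 to 3.52. Its single Unclassified cell was highest for Slc18a1 at 0.447, where the others held 0 to 0.111. P11 was caught on 1 chip, so that age and chip cannot be told apart.

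Gch1 in Noradrenergic3 was highest at P34, at 5.82 in 3 cells, where the other collections held 3.18 to 4.14. The remaining 4 each rest on 1 or 2 cells. Slc18a1 in Ach1 was 0.534 in the P30 female cell and 0 elsewhere, and in Noradrenergic1 it was 0.154 at P38 and 0 elsewhere. Maoa in Noradrenergic1 was lowest in the P30 female cell at 5.32, where the others held 8.47 to 9.72. Dbh in Noradrenergic2 was highest in the P20 cell at 31, where the others held 17.2 to 22.9.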

How the results depend on the processing

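Of 63 results for single genes, 0 changed direction under any alternative, 31 kept their side of the threshold under all, and 29 lost their call in at least 1. The fold changes of Th, Ddc, Dbh, Slc18a2, Slc6a2, Gch1, Cyb561 and Maoa in cholinergic cells were called under all 20 alternatives. Qdpr there was lost without the P29 collection (log2 fold change -0.81) and with libraries of at least 2 cells (-0.45).

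The counts below are of the 10 genes called. The shares of all genes called under these alternatives are not given beside them. Without the replicate block 9 were called in cholinergic cells, 9 in Ach1, 8 in Ach2, 4 in Glutamatergic cells, 1 in Noradrenergic3, 0 in Noradrenergic4 and 1 in Noradrenergic5. With libraries of at least 2 cells the counts were 5 in Ach1, 2 between Ach1 and Ach2, 5 in Noradrenergic1 and 1 in Noradrenergic2. In Noradrenergic1 they were 1 with the chip as block, 2 with thinned cells and 2 without the Npy-rich cells. In Noradrenergic3 they were 0 with RLE size factors, 0 with library totals alone, 1 with DESeq2 and 0 with filterByExpr. In Noradrenergic4 they were 0 with DESeq2, 0 with filterByExpr and 0 with the chip as block. In Noradrenergic5 they were 1 with DESeq2 and 0 with filterByExpr, which did not test Slc18a1. With each collection left out in turn the counts ran from 8 to 9 in cholinergic cells and in Ach1, from 7 to 8 in Ach2, from 3 (without P31) to 8 in Glutamatergic cells, and from 0 to 2 in Noradrenergic1. They ran from 0 to 2 in Noradrenergic3, at 0 without P11, P29 or P38, and from 0 to 1 in Noradrenergic4, at 0 without P11, P29, the P30 females, P31 or P38. In Noradrenergic5 they ran from 1 to 2. Of the 6 ratios, 0 passed with thinned cells, and 0 to 4 with a collection left out. In these settings the smallest p the ratio test allows is larger, so its lost calls are set by the design. The cause of the changes in the gene counts was not tested.

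The libraries of the small identities are mostly single cells, and low genes such as Slc18a1 rest on few counts, which limits their precision. Library totals alone and the set without the Npy-rich cells were chosen after seeing the data.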
